A study of Mus musculus with 4 samples.

Results

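Semaphorins, Slits, netrins and ephrins are the 4 classic families of guidance cues, and the genes described here are 33 members of these ligands and of their plexin, Robo, Unc5 and Eph receptors. They were chosen by gene symbol, though with earlier results of these data known. They are 33 of the 18193 genes to which the array annotation gives a probe set of their own. Of the 80 probe sets for these genes, 46 were bright enough to be tested and 34 were not. The array has several probe sets for many of the genes, and each reads its own stretch of the transcript, so values are compared between pools at 1 probe set and never between probe sets.

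RNA came from Sca-1 cells, a surface-marker fraction of the heart that is enriched for resident progenitor cells, taken by magnetic sorting at the age of 6 weeks and not cultured. Cyc cells were from double-transgenic FVB mice that overexpress Cyclin T1 and Gαq and develop heart failure, and Wt cells from their wildtype littermates. Both transgenes are driven by the αMHC promoter, which is active in cardiomyocytes, so the sorted cells are not those in which the transgenes are meant to act. For Gnaq, the gene of Gαq, the paper reports a single probe set that was much higher in Cyc in these cells. It saw no difference at the other Gnaq probe sets. Each genotype has 2 arrays from 2 independent experiments, which the replicate numbers are taken to mark. Each array is a pool of 2 to 3 hearts of either sex. Comparison of Cyc with Wt asks how the transcripts of this cell fraction differ between failing and normal hearts.

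Guidance cues were first found as signals that attract or repel growing axons, and the same proteins steer vessels and migrating cells. Secreted class 3 semaphorins mostly bind a neuropilin that is paired with a plexin, whereas the membrane-bound classes bind plexins directly. Slits act through Robo receptors and netrins through Dcc, neogenin and Unc5 proteins. Ephrins are tethered to the membrane and signal to Eph receptor tyrosine kinases on the adjoining cell and backwards into their own cell, and in the heart they are best known for setting arterial against venous endothelium.

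Most members were expressed in Sca-1 cells of both genotypes, and none passed the thresholds of the study between Cyc and Wt. At an intensity of 50 or more, below which a reading is treated as near background, 25 of the 33 genes were read in all 4 pools at 1 probe set or more, and 21 were at a floor of 100. Plxna3, Plxnc1, Slit2 and Ephb3 were read in 1 to 3 pools. Sema3a, Sema3b, Sema5a and Slit3 were read in no pool, with highest readings of 47.7 for Sema3a, 21.3 for Sema3b, 49.9 for Sema5a and 48.6 for Slit3. The cues thus read included secreted and membrane-bound semaphorins, the netrin Ntn1 and ephrins of both classes, and their receptors included each of the 8 plexins in at least 3 pools.

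**Figure D1:**
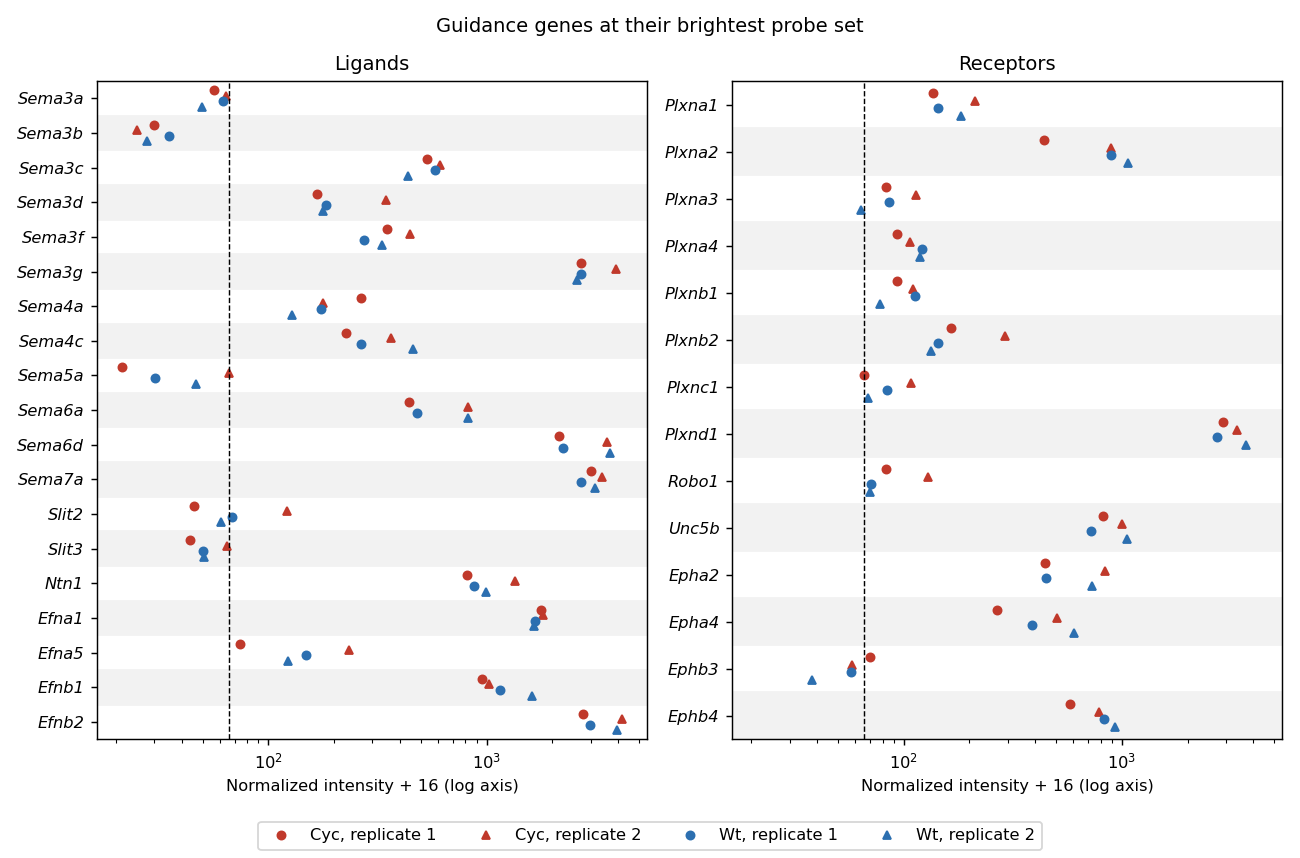
Normalized intensity plus 16 (log axis) of each guidance gene in the 4 pools, at its brightest probe set, with ligands on the left and receptors on the right. Red symbols are Cyc pools and blue symbols Wt pools, circles are replicate 1 and triangles replicate 2, and the dashed line marks an intensity of 50. Sema3a, Sema3b, Sema5a and Slit3 lie left of it in all pools, and only positions along the same row can be compared.

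In the comparison across all 20680 tested probe sets (limma, two-sided), 0.735% were called higher and 0.116% lower in Cyc cells at 2-fold with an unadjusted p under 0.05. Of the 46 tested guidance probe sets, 0 were called higher and 0 lower. Without the fold threshold, 0 had an unadjusted p under 0.05 by limma in this main fit, beside 1.99% of all tested probe sets. By an ordinary t-test of the same values 2 did, beside 644 of all 20680. These were Efnb1 1418285_at (t-test p 0.0136) and Efna1 1416895_at (t-test p 0.0182). The smallest unadjusted p by limma was 0.117 and every adjusted p by limma was 1. With the experiment as a block 0.924% of all probe sets were called higher and 0.227% lower, none of them a guidance probe set. The block leaves the fold change as it was, and no guidance probe set reached 2-fold, so it could call none. A block p under 0.05 was found for 4 of the 46 (8.7%), in Plxna2, Sema4a and Epha4, beside 6.98% of all, and the smallest adjusted p among them was 0.666. A p that misses the threshold does not show that the cells were alike, since the 95% confidence interval lay within 2-fold in both directions for 14 of the 46 probe sets. The others leave room for a change of 2-fold or more.

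The fitted log2 fold changes, Cyc minus Wt on the scale of log2(intensity + 16), ran from -0.68 for Epha4 to 0.67 for Plxnb2. Over the member genes with a tested probe set, 28 in all, the median was 0.10 with each gene at its brightest probe set, beside -0.02 over all tested probe sets. The median of the genes was -0.10 within experiment 1 and 0.20 within experiment 2, and that of all tested probe sets was -0.10 and 0.06. Differences were thus small and the experiments differed in sign, so values within each experiment, which are single differences without a test, are given beside the fits.

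**Figure D2:**
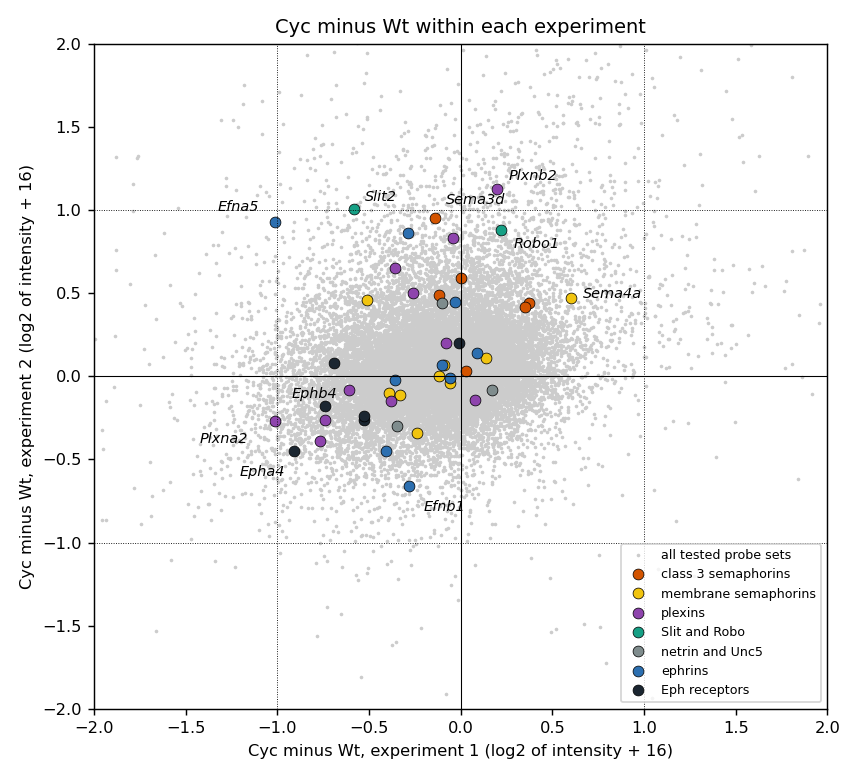
Cyc minus Wt difference (log2 of intensity plus 16) within experiment 1 on the horizontal axis and within experiment 2 on the vertical axis, for the 46 tested guidance probe sets coloured by role over all 20680 tested probe sets in grey. Dotted lines mark 2-fold. All 4 points of Plxna2, all 3 of Efnb1 and 3 of the 4 of Epha4 lie below 0 on both axes, those of Plxnb2, Robo1 and Sema4a lie above 0 on both, and Efna5 has opposite signs. A gene with several points is named at the one with the largest fitted change. A few grey points lie outside the axes.

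The pools are mixed cells, and where a bulk intensity differs, fewer cells of a type and less RNA per cell cannot be told apart. Ly6a, which encodes Sca-1, was bright throughout, with 13368 and 11588 in Cyc, against 14051 and 10562 in Wt, a log2 fold change of 0.03. All 8 endothelial and all 8 fibroblast markers were read in every pool. Markers of airway and alveolar epithelium did not follow genotype. Their summed intensity was 406 and 18189 in Cyc replicates 1 and 2 and 3216 and 217 in Wt replicates 1 and 2, and the sums of 6 mesothelial markers were 611 and 2262 in Cyc, against 1245 and 682 in Wt. Cyc replicate 2 also had the highest sum of smooth muscle and pericyte markers, with 11423 and 20964 in Cyc, against 9888 and 13892 in Wt. Cardiomyocyte markers were present as well, with 4 of 6 read in all pools. The sums of the 6 were 1499 and 1101 in Cyc, against 2493 and 1482 in Wt. None of the Schwann cell markers with a probe set was read. The part of these cell types in the results that follow was not tested unless a value is given there.

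Among the class 3 semaphorins, 4 of the 6 genes were read in all pools, and all 6 of their tested probe sets had positive log2 fold changes, from 0.03 to 0.41. None passed the test. Sema3f, which repels cells through neuropilin-2, differed in both experiments. At its brightest probe set (1438947_x_at) it had intensities of 333.9 and 427.8 in Cyc, against 257.8 and 315.0 in Wt, a log2 fold change of 0.39 with a standard error (SE) of 0.26. The Cyc pools were above both Wt pools there and at a second probe set (1425840_a_at), with 189.7 and 238.6 in Cyc, against 143.5 and 171.2 in Wt. At the third (1420508_at) the pools overlapped and the log2 fold change was 0.03, so the probe sets of Sema3f disagree in size.

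For the other secreted semaphorins the positive sign came from experiment 2. Sema3g, which is known from endothelium and binds neuropilin-2, had 2687 and 3882 in Cyc, against 2692 and 2572 in Wt (0.29 ± 0.28, log2 fold change ± SE). Only Cyc replicate 2 stood above the other pools. Sema3d, a cue for the developing venous and coronary vessels, had 150.4 and 328.8 in Cyc, against 167.5 and 162.1 in Wt (0.41 ± 0.41), with -0.14 in experiment 1 and 0.95 in experiment 2. Sema3c, which guides the cells of the cardiac outflow tract, had 516.6 and 597.2 in Cyc, against 564.3 and 421.8 in Wt (0.18 ± 0.27). Here Wt replicate 2 was the lowest pool. Fibroblast markers had a sum of 41744 and 41685 in Cyc, against 42891 and 26772 in Wt, so the same pool was lowest for them, and their part in the value of Sema3c was not tested.

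Of the 6 membrane semaphorins 5 were read in all pools, and 7 of their 9 tested probe sets had negative log2 fold changes, most of them near 0. Sema7a, a lipid-anchored cue that binds plexin-C1 and β1 integrin, had 2979 and 3359 in Cyc, against 2701 and 3118 in Wt, a log2 fold change of 0.12 (95% confidence interval from -0.50 to 0.75). Sema6d, a transmembrane ligand of plexin-A1 that shapes the heart of the chick embryo, had 2120 and 3554 in Cyc, against 2216 and 3659 in Wt at its brightest probe set. The genotypes differed there by -0.05 ± 0.40, whereas replicate 2 exceeded replicate 1 by 0.74 in Cyc and by 0.72 in Wt. Sema6a, a ligand of plexin-A2 and plexin-A4, had the same form, with 425.4 and 808.7 in Cyc, against 464.3 and 807.6 in Wt. At these 2 probe sets the pools were parted by experiment and overlapped between the genotypes. At a dim second probe set of Sema6a (1425903_at) they did not overlap, with 45.0 and 57.4 in Cyc, against 63.9 and 62.4 in Wt (-0.24 ± 0.24).

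Sema4c, which binds plexin-B2, was also brighter in experiment 2 in both genotypes, with 210.2 and 346.9 in Cyc, against 250.6 and 443.6 in Wt, and it was lower in Cyc in each experiment (-0.24 and -0.34). Sema4a, a cue of immune and endothelial cells that signals through plexins of the B and D classes, went the other way. At its tested probe set (1438934_x_at) it had 248.6 and 162.0 in Cyc, against 159.0 and 112.2 in Wt. The log2 fold change was 0.54 ± 0.32, with differences of 0.60 and 0.47 within the experiments. No Wt pool reached a Cyc pool, though by a small margin between Cyc replicate 2 and Wt replicate 1. Its unadjusted limma p was 0.163 without and 0.0341 with the experiment as a block. A second probe set of Sema4a (1448110_at) was near background and not tested, with 0.8 and 9.2 in Cyc, against 2.7 and 3.6 in Wt. Leukocyte markers had a summed intensity of 274 and 892 in Cyc, against 257 and 242 in Wt. Their sum was higher in Cyc in both experiments but highest in Cyc replicate 2, whereas Sema4a was highest in Cyc replicate 1. The part of these cells in the value of Sema4a was not tested.

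Several guidance genes were brighter in experiment 2, as were many other genes. Over all tested probe sets replicate 2 exceeded replicate 1 by a median of 0.38 log2 in Cyc and of 0.19 in Wt. By more than 0.5 log2 in both genotypes it did so at 11 of the 46 guidance probe sets (23.9%), beside 18.4% of all. These belong to Sema4c, Sema6a, Plxna2, Efnb2, Epha2 and, with 3 probe sets each, Sema6d and Epha4, and the share is near that of all probe sets.

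All 8 plexins had a tested probe set, and 5 of the 11 tested probe sets had positive and 6 negative log2 fold changes. Plxna2 and Plxnb2 stood furthest from 0 in opposite directions. Plexin-A2 is a receptor for class 6 semaphorins and, with neuropilins, for class 3. Its transcript was lower in Cyc at all 4 tested probe sets in both experiments. At the brightest (1453286_at) it had 424.9 and 874.6 in Cyc, against 875.0 and 1056 in Wt, with a log2 fold change of -0.64 ± 0.41 and differences of -1.01 and -0.27 within the experiments. The higher Cyc pool only just fell short of the lower Wt pool.

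The other probe sets of Plxna2 gave like values. The one with the clearest separation (1429772_at) had 233.6 and 380.6 in Cyc, against 409.3 and 501.9 in Wt (-0.58 ± 0.32, interval from -1.43 to 0.27). The pools did not overlap at 1451753_at either, with 472.9 and 634.2 in Cyc, against 731.6 and 670.9 in Wt (-0.35 ± 0.26). They overlapped at 1455037_at (-0.50 ± 0.42). The unadjusted p was 0.139 at 1429772_at and 0.180 at 1453286_at by limma, and with the experiment as a block 0.0343 and 0.0451, with an adjusted p of 0.666 or more for any guidance probe set. Without Cyc replicate 2 the log2 fold change at 1453286_at was -1.15, past the thresholds (unadjusted p 0.013, adjusted 0.59), and all tested probe sets then had a median of -0.19. Without Cyc replicate 1 it was -0.13 (unadjusted p 0.709), and -0.01 at 1455037_at, with a median of 0.18 over all tested probe sets. The size of the Plxna2 difference thus rests on Cyc replicate 1. The 4 probe sets read 1 gene and are no independent measurements of it.

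Plexin-B2, a receptor for class 4 semaphorins that is found in many epithelial and mesenchymal cells, had 148.5 and 275.8 in Cyc, against 127.0 and 117.1 in Wt. The Wt pools lay below both Cyc pools, but most of the difference was in experiment 2. Its unadjusted p by limma was 0.119, and 0.0553 with the experiment as a block. With quantile normalization the limma p was 0.0405 without and 0.023 with the block, and with equal medians it was 0.0451. In the fits without the block 0 probe sets of the array had an adjusted p under 0.05. The log2 fold change was 0.67 ± 0.35 (interval from -0.25 to 1.59), with 0.20 in experiment 1 and 1.13 in experiment 2. Without Cyc replicate 1 it was 1.08 and past the thresholds (unadjusted p 0.015, adjusted 0.838), where all tested probe sets had a median of 0.18. Without Cyc replicate 2 it was 0.25 (unadjusted p 0.473), beside a median of -0.19. Cyc replicate 2, its highest pool, is also the pool with the highest sum of airway and mesothelial markers, and their part in this value was not tested.

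The remaining plexins had fold changes closer to 0 than Plxnb2. Plxnd1, the endothelial plexin that binds Sema3e, had 2885 and 3355 in Cyc, against 2725 and 3687 in Wt (-0.03, interval from -0.74 to 0.68). Plxna4 had 77.0 and 91.0 in Cyc, against 104.8 and 102.4 in Wt (-0.26 ± 0.23), readings not far above background that did not overlap. The fits for Plxna1, Plxna3, Plxnb1 and Plxnc1 were 0.06, 0.40, 0.12 and 0.15, each with a negative difference in experiment 1 and a positive one in experiment 2.

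**Figure D3:**
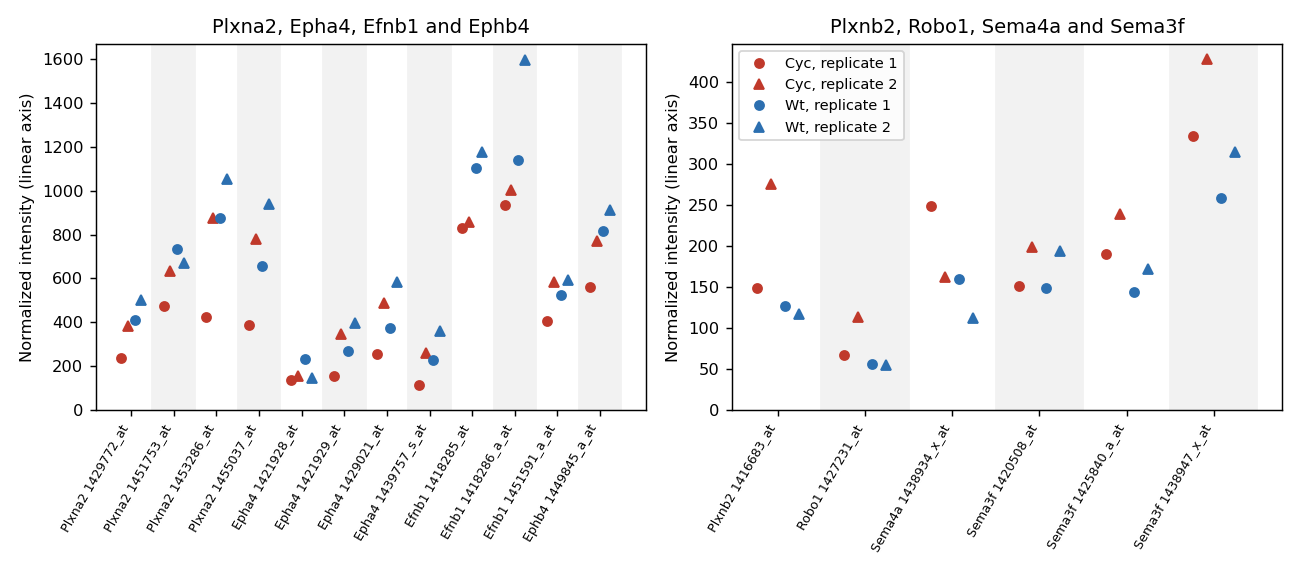
Normalized intensity (linear axis) in the 4 pools at each tested probe set of Plxna2, Epha4, Efnb1 and Ephb4 on the left and of Plxnb2, Robo1, Sema4a and Sema3f on the right. Red symbols are Cyc and blue symbols Wt, circles replicate 1 and triangles replicate 2. At Plxna2 1429772_at both Cyc pools, at 233.6 and 380.6, lie below both Wt pools, and at Plxnb2 both Cyc pools, at 148.5 and 275.8, lie above them.

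Robo1 and Slit2 were read near background. Robo1, a receptor for Slit proteins, had 66.9 and 113.1 in Cyc, against 55.1 and 54.2 in Wt at its tested probe set, a log2 fold change of 0.55 ± 0.30 with 0.22 and 0.88 within the experiments. Both Cyc pools were above both Wt pools, which lay just over the background limit. Its ligand Slit2 had 29.8 and 105.5 in Cyc, against 52.4 and 44.5 in Wt, so its highest and lowest pools were both Cyc. The differences of Slit2 were -0.58 in experiment 1 and 1.01 in experiment 2.

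Netrin-1 and its receptor Unc5b, by which netrins repel cells and restrain vessel sprouting, were read in all pools. Ntn1 had 795.7 and 1330 in Cyc, against 855.2 and 976.7 in Wt (0.17 ± 0.33), with Cyc at either end. Unc5b had 801.0 and 984.1 in Cyc, against 708.2 and 1039 in Wt at one probe set (1435110_at, 0.05 ± 0.30), where the Wt pools enclosed the Cyc pools. A second probe set (1453269_at) gave 592.4 and 851.8 in Cyc, against 759.9 and 1051 in Wt (-0.32 ± 0.31). The probe sets of Unc5b thus differ in sign.

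All 4 ephrins were read in all pools. Efnb1, a transmembrane ephrin that marks borders between cell groups, was lower in Cyc in both experiments at each of its 3 probe sets. At 1418285_at it had 829.0 and 856.3 in Cyc, against 1103 and 1175 in Wt, a log2 fold change of -0.43 ± 0.22 with -0.41 and -0.45 within the experiments. In the main fit this was the guidance probe set with the smallest unadjusted p by limma, 0.117, and by the ordinary t-test its p was 0.0136. Under other settings its unadjusted limma p was 0.00951 with no filter on dim probe sets and 0.189 with equal medians. In both of these fits 0 probe sets of the array had an adjusted p under 0.05. At 1418286_a_at it had 934.9 and 1004 in Cyc, against 1138 and 1596 in Wt (-0.47 ± 0.27). The genotypes did not overlap at these 2 probe sets, but they did at 1451591_a_at (-0.19 ± 0.28).

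Efnb2, the ephrin of arterial endothelium, did not follow Efnb1. It had 2745 and 4164 in Cyc, against 2946 and 3952 in Wt at its brightest probe set, a log2 fold change of -0.01 with an interval from -0.87 to 0.84. Efna1, a lipid-anchored ephrin whose main receptor is EphA2, had 1765 and 1798 in Cyc, against 1654 and 1635 in Wt at its brightest probe set. Its pools did not overlap, yet the log2 fold change was only 0.11 (interval from -0.46 to 0.69).

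Efna5, another lipid-anchored ephrin, was the member in which the experiments differed most. It had 57.9 and 218.0 in Cyc, against 132.4 and 107.1 in Wt, so that the Cyc pools lay on either side of the Wt pools. The differences were -1.01 in experiment 1 and 0.93 in experiment 2, and the fitted value of -0.04 ± 0.59 averages over these. The order of the pools was Cyc replicate 2 highest, then Wt replicate 1, Wt replicate 2 and Cyc replicate 1. The mesothelial marker sums had the same order, as did Msln and Lrrn4 singly. Krt19, Upk1b and Upk3b were instead lowest in Wt replicate 2. The bright marker Wt1 varied little, with 478.2 and 596.4 in Cyc, against 440.0 and 597.4 in Wt. The part of these cells in Efna5 was not tested. With Cyc replicate 2 left out the log2 fold change of Efna5 was -0.87, and with Cyc replicate 1 left out it was 0.79.

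**Figure D4:**
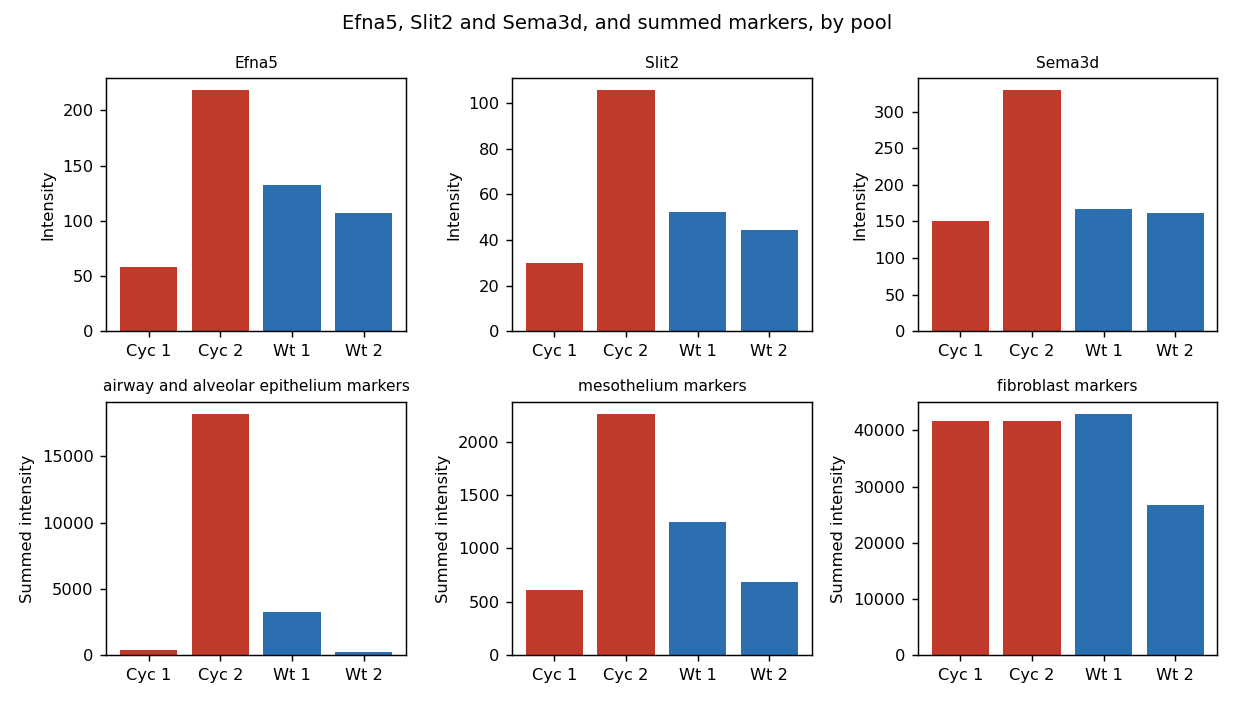
Intensity of Efna5, Slit2 and Sema3d (upper bars) and summed intensity of the airway and alveolar, mesothelial and fibroblast markers (lower bars) in each pool, with Cyc in red and Wt in blue. Each bar is 1 pool, without an error. Efna5, Slit2 and Sema3d are highest in Cyc replicate 2, at 218.0, 105.5 and 328.8, the pool in which the airway and mesothelial sums are highest too.

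Of the 4 Eph receptors, 3 were read in all pools, and 5 of their 6 tested probe sets had negative log2 fold changes, with a median of -0.38 over the genes. Epha4, which binds ephrins of both classes, was lower in Cyc in both experiments at 3 of its 4 tested probe sets. At its brightest (1429021_at) it had 251.9 and 486.0 in Cyc, against 371.5 and 584.8 in Wt (-0.40 ± 0.42). At the probe set with the lowest fold change (1439757_s_at) it had 112.4 and 257.1 in Cyc, against 224.9 and 358.3 in Wt (-0.68 ± 0.47, unadjusted p 0.208 and with the block 0.0210). The pools overlapped at each of its probe sets, and at 3 of them both genotypes were brighter in experiment 2. Without Cyc replicate 2 the values at 1439757_s_at and 1421929_at were -1.23 and -1.01, past the thresholds (unadjusted p 0.0177 and 0.0325, adjusted 0.59 for both), beside a median of -0.19 over all tested probe sets. Without Cyc replicate 1 they were -0.14 and 0.08 (unadjusted p 0.738 and 0.834), beside a median of 0.18.

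Ephb4, the receptor for ephrin-B2 on venous endothelium, had 560.0 and 771.9 in Cyc, against 815.9 and 912.5 in Wt, a log2 fold change of -0.38 ± 0.27 with -0.53 and -0.24 within the experiments. Both Cyc pools lay below both Wt pools. Epha2, the receptor for ephrin-A1 in epithelium and endothelium, had 427.0 and 817.4 in Cyc, against 431.2 and 710.1 in Wt (0.09 ± 0.44). Ephb3 was not tested, as 1 pool alone reached 50, with 54.4 and 41.8 in Cyc, against 41.1 and 22.1 in Wt. The endothelial markers, among which venous and arterial cells are not told apart, had a media log2 fold change of -0.17 with 7 of 8 negative, and their sums were 36843 and 40109 in Cyc, against 39631 and 43584 in Wt. Their part in the lower values of Ephb4 and Epha4 was not tested.

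Counted over all roles, Cyc lay below Wt in both experiments at 18 of the 46 tested guidance probe sets (39.1%), beside 29.1% of all, and above in both at 8 (17.4%), beside 26.1% of all. Both Cyc pools were below both Wt pools at 8 probe sets (17.4%), where 8.23% of all probe sets were, and above both at 6 (13.0%), where 15.1% of all were. The 8 probe sets belong to 5 genes, Sema6a, Plxna2 with 3 of them, Plxna4, Efnb1 with 2, and Ephb4. The 6 belong to Sema3f with 2 of them, Sema4a, Plxnb2, Robo1 and Efna1. Probe sets of 1 gene share their transcript, so these counts are descriptions and the excess over the background was not tested.

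The other genes of these families that were looked up, 39 in all, were mostly near background. Of the 38 with a probe set of their own, 8 were tested and read in all 4 pools, and 30 were not tested, with a highest reading of 83.4. The 8 are the class 3 co-receptors Nrp1 and Nrp2, the netrin receptor Neo1, the netrin Ntn4, Robo3, the endothelial Robo4, Ephb1 and Sema4b. The netrin receptor gene Dcc had no reading over 12.9. At their 17 tested probe sets 0 genes were called and 0 had an unadjusted p under 0.05 by limma. With the block 2 probe sets had one, in Sema4b and Nrp1, beside 6.98% of all tested probe sets. Log2 fold changes ran from -0.60 to 0.56, with a median of 0.10 over the genes. With all 4 pools Nrp1 had a log2 fold change of -0.60 ± 0.48 at 1457198_at and of -0.33 to -0.09 at its other probe sets. Without Cyc replicate 2 the log2 fold change of Nrp1 at 1457198_at was -1.16, beside a median of -0.19 over all tested probe sets.

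Downstream genes of the guidance receptors were widely expressed and likewise not called. Most of the 33 genes looked up encode intracellular partners, such as collapsin response mediators, Mical oxidases and Slit-Robo GTPase-activating proteins, and 1, Adam10, a surface protease that cleaves ephrins. Of the 33, 27 were tested at 49 probe sets. Of these, 0 were called and 0 had an unadjusted p under 0.05 by limma. With the block 2 probe sets, both of Arhgef15, had one, beside 6.98% of all tested probe sets. The log2 fold changes ran from -0.62 to 0.55 with a median of -0.01 over the genes. With all 4 pools Arhgef12 (1423902_s_at) had a log2 fold change of -0.44 ± 0.47, with -0.92 in experiment 1 and 0.04 in experiment 2. Arhgef15 (1457172_at) had -0.62 ± 0.50, with -0.74 and -0.50 within the experiments. Without Cyc replicate 2 the log2 fold changes were -1.06 for Arhgef12 and -1.16 for Arhgef15 at these probe sets. The median of all tested probe sets was then -0.19.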

How the data were processed

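The authors labelled RNA of 4 pools for Affymetrix mouse expression arrays and deposited 1 normalized intensity per probe set and pool, on a linear scale and made in Resolver. Background correction and summary method are not given in the sources used here. The deposited intensities ran from -516.8 to 19512, and 18460 to 21444 of 45037 probe sets per pool reached 50. Array number limits the precision.

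Values below 0 were set to 0, 16 was added and log2 taken, so fold changes of dim genes are understated. Probe sets at 50 or more on at least 2 arrays were fitted, Cyc minus Wt, with limma 3.58.1 in R 4.3.3 (residual 2 and prior 2.68 degrees of freedom), with Benjamini-Hochberg adjustment over all of them. The steps were tested on simulated data. Called means past the thresholds of the study, 2-fold and an unadjusted p under 0.05. The Resolver error model was not run. A gene is called by any probe set of its symbol alone, and its brightest tested probe set stands for it in medians. No coordinates are given, as no genome build was at hand.

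The labels give replicate numbers but do not name an experiment, so arrays with the same number were taken to be from the same experiment. Deviations from the group means of arrays with the same number correlated at 0.447, and the poly-A spike controls had medians of 205.6 (Cyc) and 182.8 (Wt) in replicate 1 and of 0.1056 and 1.236 in replicate 2. The study's methods use no block, and a replicate block was fitted as an alternative. P-values by limma rest on the spread between 2 pools per genotype, moderated by the spread of all fitted probe sets. With the block they rest on what is left after the replicate difference is taken out, moderated likewise, with 1 residual degree of freedom. The ordinary t-test uses the spread between the 2 pools alone.

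The members and lists were chosen with earlier results of these data known. By the rule for naming genes, values in each pool are given for members past the thresholds, for those with non-overlapping pools and 1.5-fold, and for those with opposite signs of 1.5-fold in the experiments. Plxna2, Plxnb2 and Efna5 met it, and other genes with values in each pool were chosen after their values were seen.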

Additional observations from a re-analysis of the deposited data

How the results depend on the processing

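The count of 0 guidance genes called in either direction held under the alternatives that kept all 4 pools: pseudocounts of 1 and 50, no filter, a floor of 100, quantile normalization, equal medians, an intensity trend, a t-test, the replicate block, and the replicate block with quantile normalization, which was chosen after seeing the data. It did not hold with either Cyc pool left out, and it held with either Wt pool left out. The replicate block, the intensity trend, the t-test and the change of filter leave the fold change of a tested probe set as it was. In the main fit the tested guidance probe sets ran from -0.68 to 0.67, all under 2-fold, so these settings could call none of them. Genes called higher in Cyc numbered 0 to 1 (Plxnb2 without Cyc replicate 1) and lower 0 to 2 (Plxna2 and Epha4 without Cyc replicate 2), with 0 to 1 other family genes and 0 to 2 downstream genes called. The median over the members was -0.21 to 0.30. Without Cyc replicate 1 the median of all tested probe sets was 0.18 and without Cyc replicate 2 it was -0.19. The cause was not tested. An unadjusted limma p under 0.05 was found for 2 guidance probe sets with no filter, beside 2278 of all 45037. With quantile normalization it was 2, beside 684 of 20680, and with equal medians 1, beside 638. With the replicate block with quantile normalization it was 7, beside 2026.

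Over all tested probe sets 152 were called higher and 24 lower, 178 and 46 with a pseudocount of 1, 93 and 19 with 50, 148 and 37 with no filter, 194 and 37 with equal medians, 191 and 47 with the replicate block, 195 and 49 with the replicate block with quantile normalization, 47 and 7 by the t-test, 581 and 60 without Cyc replicate 1, and 117 and 1050 without Cyc replicate 2.

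For single probe sets, 393 of 395 values under the settings with 4 pools kept their sign and side. The others were Efna5, at 0.01 with a pseudocount of 50, and Efnb2 (1419639_at), at 0.01 with equal medians. Under the settings that leave the fold change as it was, the sign could not change. With each pool left out in turn, 31 of 160 changed sign. Log2 fold changes then ran from -0.87 to 0.79 for Efna5, -0.45 to 0.06 for Efnb1 (1451591_a_at), -0.31 to 0.29 for Efnb2, -0.36 to 0.55 for Epha2, -0.62 to 0.01, -1.01 to 0.08 and -0.85 to 0.06 for Epha4 (1421928_at, 1421929_at, 1429021_at), and -0.20 to 0.53 for Ntn1. The ranges were -0.25 to 0.38 for Plxna1, -0.14 to 0.38 for Plxnb1, -0.22 to 0.51 for Plxnc1 and -0.24 to 0.19 for Plxnd1. They were -0.02 to 0.38 for Sema3c, -0.12 to 0.93 for Sema3d, -0.15 to 0.21 for Sema3f (1420508_at), -0.68 to 0.10 for Sema4c, -0.51 to 0.39 for Sema6a, -0.42 to 0.32 for Sema6d, -0.49 to 0.92 for Slit2, and -0.22 to 0.32 for Unc5b (1435110_at). Signs did not change for the other probe sets examined, but sizes did, with -1.15 to -0.13 for Plxna2 (1453286_at), -1.23 to -0.14 for Epha4 (1439757_s_at), -0.61 to -0.16 for Ephb4, 0.25 to 1.08 for Plxnb2, 0.23 to 0.87 for Robo1 and 0.25 to 0.82 for Sema4a. The values of Slit2, Robo1, Plxna3, Plxna4, Plxnb1 and Plxnc1 lie close to the background limit, where a difference is least well measured.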
